A study of Mus musculus with 9 samples.

Results

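Transcript levels of 8 genes of the tumour necrosis factor (TNF) and NF-kappaB feedback machinery were followed in mouse splenic B cells after antigen receptor crosslinking. The genes are Tnfaip3 (A20), its binding partners Tnip1 and Tnip2, the adaptor Traf1, the inhibitor of apoptosis genes Birc2 and Birc3 (cIAP1 and cIAP2), Cflar (c-FLIP) and Tnfaip8. They were chosen by name, and every probe annotated to one of the 8 symbols was taken, which gave 18 of the 45281 probes on the array. The 8 genes are among 19057 genes with a probe. Of the 18 probes, 15 passed the noise threshold on 3 or more arrays and entered the tests, among 20983 such probes in all. At least 1 probe of each of the 8 genes was among them. The 3 member probes that were not, 1 of Tnip1 and 2 of Cflar, were above noise on 0 arrays.

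The cells were primary B lymphocytes purified from spleens of C57BL/6 mice aged 8 weeks, and the labels name no genetic change in any group. The groups were untreated cells, cells given F(ab')2 anti-IgM at 2.5 µg/ml for 1 h, and cells given the same antibody for 2 h, with 3 arrays each. According to the protocol, IL-4 (5 ng/ml) and CD40 ligand (200 ng/ml) were part of the study, without a statement of which arrays received them, and the series text gives 3 h as the time of anti-IgM. The groups used here are those of the sample labels. Whether the 3 arrays of each group represent different animals or cultures is not stated, so p-values reflect spread among these samples alone, which may be technical. Values are the deposited linear intensities, and a difference is a difference of group means of log2(intensity + 50), which understates the change of dim probes.

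Crosslinking of the B cell receptor activates the kinase IKK through BCL10 and MALT1, and IKK releases NF-kappaB dimers into the nucleus. Several genes switched on by NF-kappaB encode proteins that act back on the pathway. A20 edits ubiquitin chains on signalling proteins and dampens the NF-kappaB response, and the ABIN proteins encoded by Tnip1 and Tnip2 bind A20 and ubiquitin. TRAF1 and the cIAP proteins join TNF receptor complexes, where cIAPs are the ubiquitin ligases, and c-FLIP blocks caspase-8. In B cells, cIAP1 and cIAP2 also hold the NF-kappaB-inducing kinase NIK at a low level until CD40 or BAFF receptor signals remove the brake.

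Promoter sequences are shown for the windows that held a searched motif, of Tnfaip3, Tnip1 and Birc2. The window of Traf1, the member with the widest spread over the arrays, held none and is shown too. The windows run from 250 bases before to 50 bases after a RefSeq transcript start in GRCm38.p6, read 5' to 3' on the gene's strand, and capitals mark the motif matches. Motifs were the NF-kappaB consensus, the AP-1 site TGANTCA and the cyclic AMP response element TGACGTCA, each searched on both strands. The Tnfaip3 window is chr10:19015361-19015660, the Tnip1 window chr11:54962891-54963190, the Traf1 window chr2:34961723-34962022 and the Birc2 window chr9:7837008-7837307, all on the minus strand.
Tnfaip3: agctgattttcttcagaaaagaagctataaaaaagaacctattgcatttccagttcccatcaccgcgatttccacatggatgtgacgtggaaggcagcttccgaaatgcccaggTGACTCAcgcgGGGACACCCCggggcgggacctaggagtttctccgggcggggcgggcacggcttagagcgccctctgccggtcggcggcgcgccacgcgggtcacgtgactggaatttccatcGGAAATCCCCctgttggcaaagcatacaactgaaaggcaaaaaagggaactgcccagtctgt
Tnip1: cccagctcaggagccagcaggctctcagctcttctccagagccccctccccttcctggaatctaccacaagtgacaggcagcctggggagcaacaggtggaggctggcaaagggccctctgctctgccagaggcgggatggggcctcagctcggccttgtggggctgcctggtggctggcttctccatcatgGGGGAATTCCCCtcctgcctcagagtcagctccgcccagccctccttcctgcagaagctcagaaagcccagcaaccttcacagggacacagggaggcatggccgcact
Traf1: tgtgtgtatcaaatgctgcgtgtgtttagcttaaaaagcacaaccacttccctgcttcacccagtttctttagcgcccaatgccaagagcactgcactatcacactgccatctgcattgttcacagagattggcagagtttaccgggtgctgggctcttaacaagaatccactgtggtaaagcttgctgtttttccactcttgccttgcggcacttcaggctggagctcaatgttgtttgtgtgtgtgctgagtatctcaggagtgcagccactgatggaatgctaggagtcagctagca
Birc2: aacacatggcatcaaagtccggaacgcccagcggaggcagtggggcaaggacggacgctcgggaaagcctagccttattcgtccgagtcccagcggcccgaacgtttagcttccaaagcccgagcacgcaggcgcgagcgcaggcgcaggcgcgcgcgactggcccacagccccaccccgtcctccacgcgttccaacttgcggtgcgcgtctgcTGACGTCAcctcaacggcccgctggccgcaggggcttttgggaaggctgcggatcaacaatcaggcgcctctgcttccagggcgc
In Tnfaip3 the AP-1 site TGACTCA lay 136 bases upstream of the start, and matches to the NF-kappaB consensus began 125 and 12 bases upstream. In Tnip1 the capitals cover 3 overlapping matches to the NF-kappaB consensus, the first of them 58 bases upstream. In Birc2 the capitals are 1 cyclic AMP response element, 35 bases upstream. Of the 9 windows available for 7 of the genes, 3 held a match and 6 held none of these letters. The 6 were the windows of Tnip2, Traf1, Birc3 and Cflar, and a further window each of Tnfaip3 and of Birc2, at another transcript start. Over all 32851 mouse promoter windows of the same length, 4.51% held the NF-kappaB consensus, 7.81% the AP-1 site and 1.79% the cyclic AMP response element. A match describes letters in a window and not binding.

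**Figure D1:**
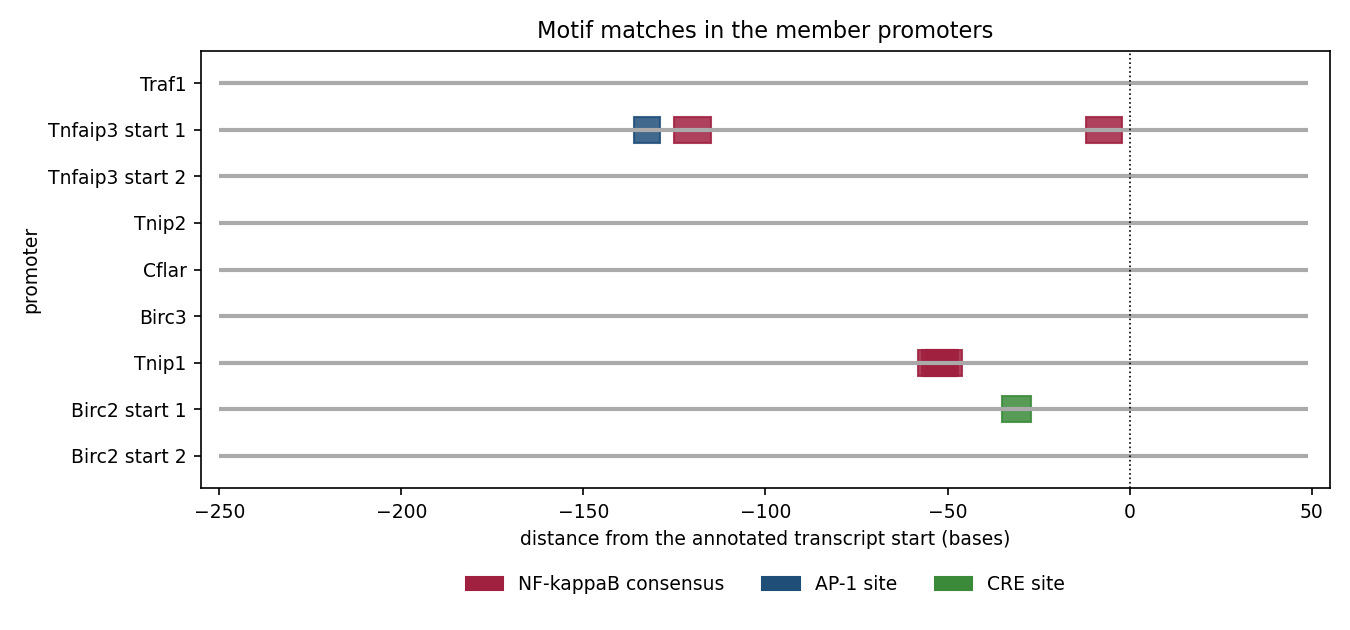
Positions of motif matches in the promoter windows of the member genes, in bases from the transcript start, with 1 row per window and 1 marker per match. Matches appear in 3 of the 9 windows, all upstream of the start. These are the Tnip1 window and 1 of the 2 windows each of Tnfaip3 and Birc2.

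With earlier results of these data known, 3 arrays were set apart. Across all 20983 probes they resembled arrays with another label most, and correlated at no more than 0.951 with any array of their own label. The array labelled untreated replicate 2 correlated most with 2 h replicates 1 and 3 (r of 0.983 and 0.981 across probes, which are not independent replicates) and at most at 0.951 with its own label. For the array labelled 2 h replicate 2 the highest values were with untreated replicates 1 and 3 (0.993 and 0.990), against 0.947 with its own label. For the array labelled 1 h replicate 2 the highest was with untreated replicate 2 (0.976), against 0.941 with its own. Untreated replicate 1 was also nearest to an array of another label, 2 h replicate 2 (0.993), but correlated at 0.992 with untreated replicate 3 and was kept with its group. The deposited labels were kept for every group, and the members' results are given with all 9 arrays and again without these arrays. Of the array pairs 0 were identical, the median intensity per array was 3.76 to 3.77, and 19088 to 19112 probes per array were above noise. The deposited values are scaled between arrays, so these close medians and counts do not measure array quality.

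The 15 probes tested gave no call in any comparison. At an adjusted p under 0.05 (limma, Benjamini-Hochberg over the 20983 probes), 0 of 15 passed at 1 h against untreated, at 2 h against untreated and at 2 h against 1 h, where the percentage of all probes called was 0% in each. At an unadjusted p under 0.05, 0 of 15 passed at 1 h against untreated beside 1.3% of all probes, 1 of 15 at 2 h against untreated beside 4.68%, and 2 of 15 at 2 h against 1 h beside 6.53%. These were Tnfaip8 at 2 h against untreated, and Tnfaip8 and Cflar at 2 h against 1 h. The median difference of the 15 probes was -0.03 at 1 h against untreated, 0.09 at 2 h against untreated and -0.0082 at 2 h against 1 h. Over all probes the medians were -0.0029, -0.010 and -0.0089 in the same order.

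**Figure D2:**
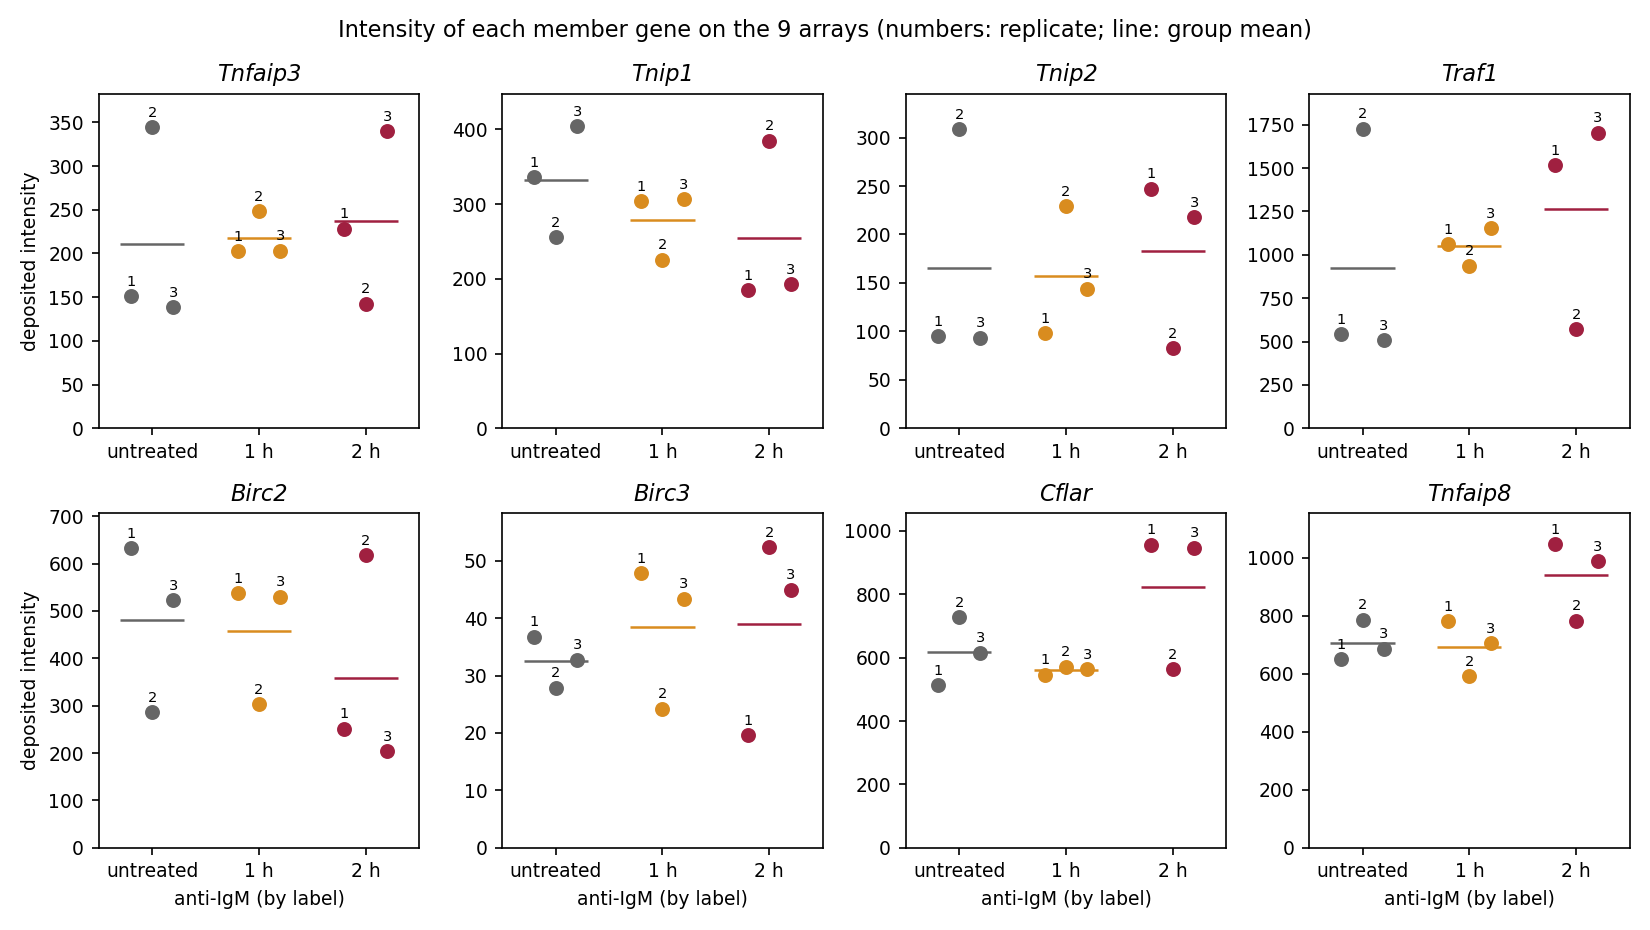
Deposited intensity of the probe that stands for each gene on each of the 9 arrays, with 1 panel per gene. The groups untreated, anti-IgM 1 h and anti-IgM 2 h run from left to right, numbers are the replicates and bars the group means. In every panel untreated replicate 2 and 2 h replicate 2 lie at opposite ends of their groups, as in Traf1 at 1726 and 572.

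The gene for A20, Tnfaip3 (chr10, 19000910 to 19015410 in GRCm38.p6, 1 probe), had intensities of 151, 344 and 138 in untreated replicates 1 to 3, 202, 248 and 203 at 1 h, and 229, 143 and 340 at 2 h. Untreated replicate 2 was the highest of all 9 arrays, and the 1 h and 2 h values lay within the untreated range. Tnfaip3 differed from untreated by 0.12 ± 0.33 at 1 h (log2, limma standard error, n = 3 a group, adjusted p = 0.9999) and by 0.16 ± 0.33 at 2 h (adjusted p = 0.939). The sign of both rested on single arrays: without untreated replicate 2 the 2 h difference was 0.50, and it was -0.09 without 2 h replicate 3, and at 1 h it was 0.46 without untreated replicate 2 and -0.07 without untreated replicate 3. Without the 3 arrays numbered replicate 2, the 2 h difference was 0.76 ± 0.15.

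Tnip1, which encodes ABIN-1, lies on chr11 (54910787 to 54962956) and its brightest probe gave 336, 256 and 404 in untreated cells, 304, 226 and 307 at 1 h, and 185, 385 and 193 at 2 h. Replicates 1 and 3 at 2 h were the lowest of the 9 arrays, while 2 h replicate 2 lay among the untreated values. The mean difference from untreated was -0.21 ± 0.26 at 1 h (adjusted p = 0.9999) and -0.37 ± 0.26 at 2 h (adjusted p = 0.924). All 3 kept Tnip1 probes were lower at 2 h than in untreated cells, with differences of -0.37 to -0.11, and at 1 h 2 were lower and 1 was higher. The 2 h difference was -0.66 without 2 h replicate 2 and -0.21 without 2 h replicate 1, and the 1 h difference was -0.36 without untreated replicate 2 and -0.07 without untreated replicate 3. Without the 3 arrays the 2 h difference was -0.81 ± 0.12.

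Tnip2, which encodes ABIN-2, lies on chr5 (34496096 to 34513979). Its main probe gave 94.9, 309 and 93.3 in untreated cells, 97.8, 229 and 144 at 1 h, and 247, 82.5 and 218 at 2 h. In untreated cells and at 1 h replicate 2 was highest, and at 2 h it was lowest, with all groups overlapping. The difference was 0.03 ± 0.44 at 1 h (adjusted p = 0.9999) and 0.17 ± 0.44 at 2 h (adjusted p = 0.958), each below its standard error. Leaving out 1 array moved the 2 h difference between -0.06 (without untreated replicate 3) and 0.61 (without untreated replicate 2), and the 1 h difference between -0.21 (without 1 h replicate 2) and 0.47 (without untreated replicate 2). Without the 3 arrays the 2 h difference was 0.97 ± 0.14. The second Tnip2 probe was dim, between 0.378 and 13.0, and was above noise on 4 arrays.

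Traf1 (chr2, 34941750 to 34961812) encodes an adaptor that pairs with TRAF2 and the cIAPs. It had 2 kept probes, ILMN_1253947 and ILMN_1230586. The first gave 542, 1726 and 507 in untreated cells, 1060, 937 and 1152 at 1 h, and 1518, 572 and 1704 at 2 h. Its second probe gave 222, 585 and 211 in untreated cells, 624, 485 and 699 at 1 h, and 556, 210.1 and 710 at 2 h. On both probes the 1 h arrays spread less than those of the other groups, while untreated replicate 2 was far above its group and 2 h replicate 2 far below its own. At 1 h Traf1 differed from untreated by 0.39 ± 0.51 on the first probe and by 0.86 ± 0.45 on the second (unadjusted p = 0.0932 on the second, adjusted p = 0.9999 on both). At 2 h the differences were 0.51 ± 0.51 and 0.47 ± 0.45 (adjusted p = 0.924 on both). Between 2 h and 1 h the probes differed in sign, at 0.13 ± 0.51 and -0.39 ± 0.45, and without 2 h replicate 2 they were 0.60 and 0.07.

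The Traf1 differences depended on which arrays were used. Without untreated replicate 2 the first probe differed from untreated by 0.93 at 1 h and 1.06 at 2 h, and without untreated replicate 3 by 0.10 at 1 h and 0.22 at 2 h. The second probe's 1 h difference was 1.28 without untreated replicate 2 and 0.64 without untreated replicate 3. Its 2 h difference was 0.93 without 2 h replicate 2 and 0.16 without 2 h replicate 3. Without the 3 arrays numbered replicate 2, the difference from untreated was 1.01 ± 0.12 at 1 h and 1.53 ± 0.12 at 2 h on the first probe. On the second it was 1.41 ± 0.13 at 1 h and 1.35 ± 0.13 at 2 h.

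The cIAP genes Birc2 (chr9, 7818226 to 7837131) and Birc3 (chr9, 7847468 to 7873205) are neighbouring paralogs, 10337 bases apart, and each carries old names of the other in RefSeq. Their probes were assigned by gene ID, and cross-hybridization between them was not tested. The brightest of 4 Birc2 probes gave 633, 286 and 522 in untreated cells, 538, 303 and 530.0 at 1 h, and 251, 617 and 204 at 2 h. Within each of the untreated and 1 h groups replicate 2 was lowest, and at 2 h it was highest. Birc2 differed from untreated by -0.04 ± 0.41 at 1 h (adjusted p = 0.9999) and by -0.45 ± 0.41 at 2 h (adjusted p = 0.924), with groups overlapping. Without untreated replicate 2 the 1 h difference was -0.34, and it was 0.20 without 1 h replicate 2. At 2 h it was -0.88 without 2 h replicate 2 and -0.18 without 2 h replicate 3. The 4 Birc2 probes were all lower at 1 h, and at 2 h 3 were lower and 1 was higher, between -0.45 and 0.13. Without the 3 arrays the 2 h difference was -1.18 ± 0.13.

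Birc3 had 1 probe, with 36.8, 27.9 and 32.8 in untreated cells, 47.8, 24.2 and 43.4 at 1 h, and 19.6, 52.3 and 44.9 at 2 h. These are low intensities, with a noise threshold of 6.44, and the values overlapped in all groups. The differences were 0.09 ± 0.17 at 1 h (adjusted p = 0.9999), 0.09 ± 0.17 at 2 h (adjusted p = 0.936) and -0.0013 ± 0.17 between 2 h and 1 h. Without 2 h replicate 2 the 2 h difference from untreated was -0.02, and without 2 h replicate 1 it was 0.26. Without the 3 arrays it was -0.06 ± 0.15.

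Cflar (chr1, 58711311 to 58758884) encodes the caspase-8 inhibitor c-FLIP. Its 1 kept probe gave 513, 728 and 616 in untreated cells, 546, 572 and 564 at 1 h, and 956, 564 and 946 at 2 h. Replicates 1 and 3 at 2 h were the highest of the 9 arrays, and 2 h replicate 2 lay inside the 1 h range. The 2 h arrays were 0.48 ± 0.20 above the 1 h arrays (unadjusted p = 0.0447, adjusted p = 0.748) and 0.36 ± 0.20 above untreated (adjusted p = 0.924). At 1 h Cflar was -0.12 ± 0.20 from untreated (adjusted p = 0.9999).

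Tnfaip8 (chr18, 49979427 to 50093229) encodes a TNF-induced regulator of cell survival. Its probe gave 650, 786 and 685 in untreated cells, 781, 592 and 706 at 1 h, and 1045, 782 and 988 at 2 h. It was the 1 of 15 member probes whose 2 h values all exceeded the 1 h values, at 782 for the lowest 2 h array and 781 for the highest 1 h array. Of all probes 6.59% had this pattern. In the other direction 0 of 15 had every 2 h value below every 1 h value, beside 4.62% of all probes. Against untreated, 0 of 15 were wholly higher at 1 h beside 2.59% and 0 of 15 wholly lower beside 2.55%. At 2 h 0 of 15 were wholly higher than untreated beside 6.2% and 0 of 15 wholly lower beside 4.39%. At 2 h Tnfaip8 was 0.41 ± 0.15 above 1 h (unadjusted p = 0.0217, adjusted p = 0.662) and 0.38 ± 0.15 above untreated (unadjusted p = 0.0304, adjusted p = 0.924). At 1 h it was -0.03 ± 0.15 from untreated, and this sign turned without 1 h replicate 2, where it was 0.07. Cflar and Tnfaip8 kept a positive 2 h difference without any single array, at 0.24 (without 2 h replicate 1) to 0.59 (without 2 h replicate 2) from untreated for Cflar and 0.30 to 0.50 for Tnfaip8. This was not particular to them. From untreated at 2 h, both Traf1 probes also stayed positive, and the brightest Tnip1 and Birc2 probes stayed negative.

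**Figure D3:**
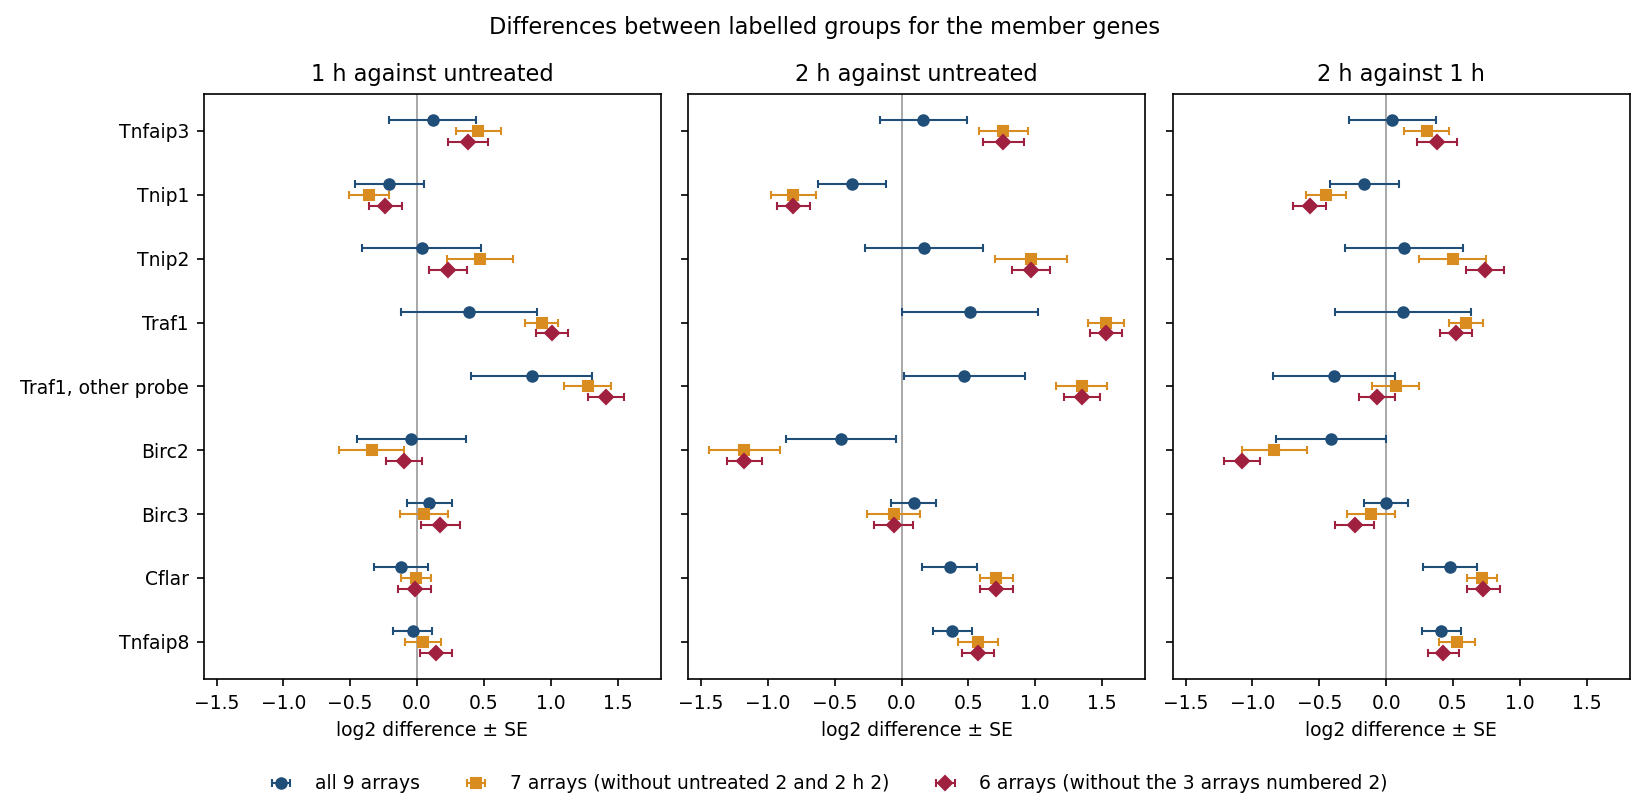
Log2 difference with its limma standard error for each gene in the 3 comparisons, with a further row for the second Traf1 probe. Markers show all 9 arrays, the arrays without untreated replicate 2 and 2 h replicate 2, and those without the 3 arrays numbered replicate 2. With all 9 arrays no gene passed the threshold, and the largest 2 h difference from untreated, that of Traf1, was 0.51 ± 0.51 with all arrays and 1.53 ± 0.12 without the 3.

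Without untreated replicate 2 and 2 h replicate 2, the difference of 1 of the 8 genes, Traf1, passed at 1 h against untreated, where 0.591% of all probes did. At 2 h against untreated 4 of 8 passed beside 8.12% of probes: Traf1 (1.53) and Cflar (0.71) higher, Tnip1 (-0.81) and Birc2 (-1.18) lower. At 2 h against 1 h 0 of 8 passed beside 0% of probes. Without 1 h replicate 2 as well, Traf1 (adjusted p = 0.00026) was the 1 of 8 that passed at 1 h beside 6.72% of probes. The other 7 differed from untreated at 1 h by -0.24 (Tnip1) to 0.38 (Tnfaip3), with adjusted p-values of 0.186 to 0.970. At 2 h against untreated 7 of 8 passed beside 33.6% of probes: Tnfaip3, Tnip2, Traf1, Cflar and Tnfaip8 (0.57 ± 0.12) higher, Tnip1 and Birc2 lower. Adjusted p-values of these 7 ran between 1.66e-06 for Traf1 and 0.00238 for Tnfaip8. At 2 h against 1 h 6 of 8 passed beside 24.2% of probes, with Tnip2 (0.74), Traf1 (0.52), Cflar (0.73) and Tnfaip8 (0.43) higher and Tnip1 (-0.57) and Birc2 (-1.08) lower. The second Traf1 probe went the other way there, at -0.066 ± 0.13 (adjusted p = 0.778). With all 9 arrays kept but weighted by their agreement with their group, the same 7 genes passed at 2 h against untreated beside 31.1% of probes, 0 of 8 passed in the other comparisons, and the Traf1 difference was 1.29 ± 0.27. The arrays left out were identified from the same values that were then tested, and the weights estimated from them, so these calls describe the remaining arrays, and their p-values are too small to be read as a test of anti-IgM.

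The spread between the arrays of a label had one pattern in all 8 genes. Untreated replicate 2 was the highest untreated array for Tnfaip3, Tnip2, Traf1, Cflar and Tnfaip8 and the lowest for Tnip1, Birc2 and Birc3. At 2 h replicate 2 was the lowest array for the same 5 genes and the highest for the same 3. Such opposite extremes occurred in 15 of the 15 member probes and in 52.9% of all 20983 probes. The gap between untreated replicate 2 and the mean of untreated replicates 1 and 3 was 1.63 for Traf1, 1.32 for Tnip2, 1.02 for Tnfaip3, -0.89 for Birc2, -0.45 for Tnip1, 0.34 for Cflar, 0.22 for Tnfaip8 and -0.12 for Birc3 on the log2 scale. At 2 h the gap was -1.42 for Traf1, -1.09 for Tnip2, -0.77 for Tnfaip3, 1.27 for Birc2, 0.86 for Tnip1, -0.71 for Cflar, -0.36 for Tnfaip8 and 0.33 for Birc3. The median size of this gap over all probes was 0.217 in untreated cells and 0.226 at 2 h. In untreated cells the gap of Birc3 was smaller than this median and that of Tnfaip8 about equal to it.

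**Figure D4:**
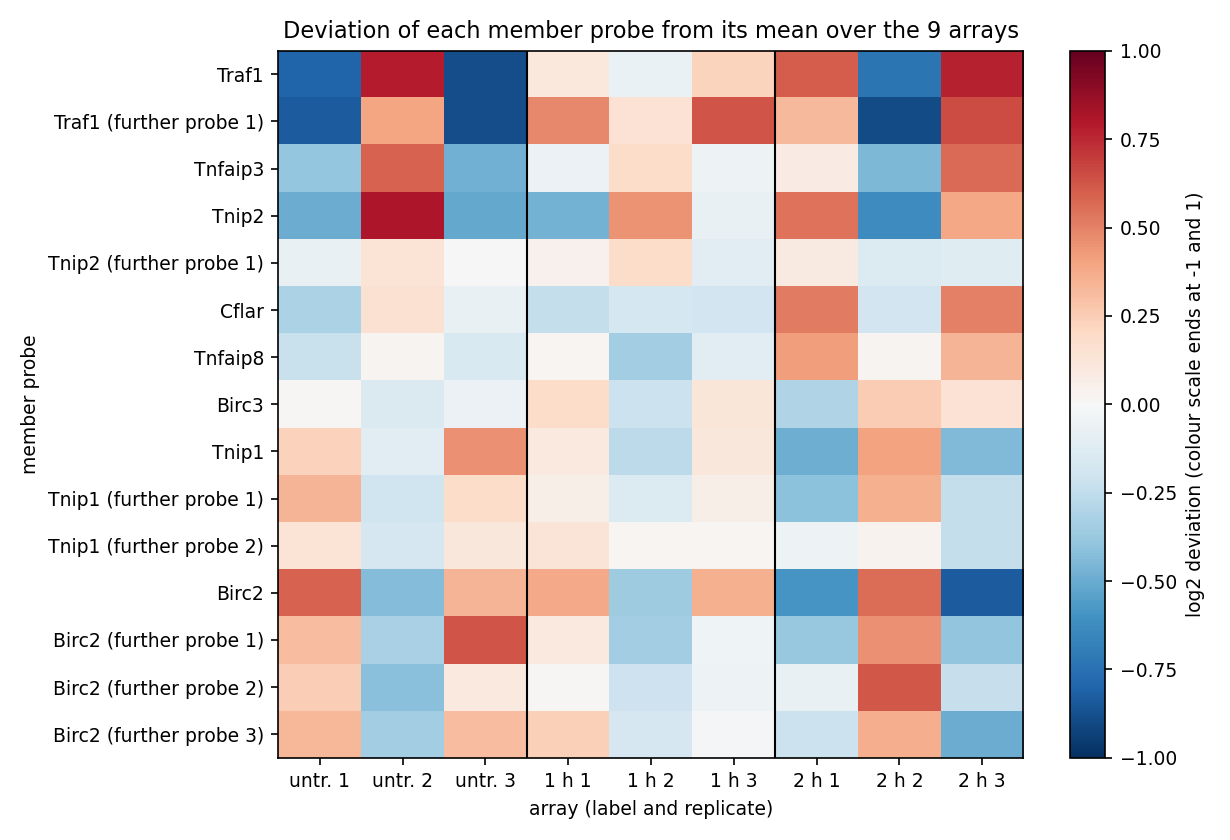
Deviation of the 15 kept member probes from their own means over the 9 arrays (log2, colour), with probes in rows and arrays in the order untreated, anti-IgM 1 h, anti-IgM 2 h. For the probe that stands for each gene, Traf1, Tnip2 and Tnfaip3 are above and Birc2 and Tnip1 below their means on untreated replicate 2 and 2 h replicates 1 and 3. The reverse holds on 2 h replicate 2. Tnfaip3 is only 0.08 above its mean on 2 h replicate 1, and the second, dim Tnip2 probe is at -0.12 on 2 h replicate 3.

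Over the 9 arrays the first Traf1 probe had the widest range of the 8 genes, 1.67 on the log2 scale, wider than 95.0% of all kept probes. Tnip2 spanned 1.44, Birc2 1.43 and Tnfaip3 1.07, against a median of 0.603 over all kept probes. Tnip1 (0.95), Cflar (0.84) and Tnfaip8 (0.77) were also above that median, and Birc3 (0.56) was below it. The members fell into different profiles. The closest pair was Cflar and Tnfaip8, whose deviations from their own means differed by 0.155 on average (root mean square over the 9 arrays, log2). Tnfaip3 and Tnip2 differed by 0.253 and Tnip1 and Birc2 by 0.255. Tnip2 and Birc2 differed by 1.01 as measured and by 0.232 with the sign of one turned, which describes mirrored profiles.

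By the same measure, the genes most like each of the 4 members of widest range were sought among 11096 named genes. For Tnfaip3 they were Fbxo30 (0.098), Utp23 (0.115) and Dipk2a (0.125), where the median gene differed by 0.420. For Traf1 they were Tnfrsf12a (0.095), Hic1 (0.111) and Tank (0.120, median gene 0.658). For Tnip2 they were Ippk (0.094), Syncrip (0.101) and Myo1e (0.102, median gene 0.547). For Birc2 they were Insr (0.095), Pou2f2 (0.099) and Synrg (0.101, median gene 0.533). All such profiles share the 9 arrays, including those that went against their labels. Some of the named genes were dim. Tnfrsf12a lay below the noise threshold of 6.44 on untreated replicates 1 and 3 (2.04 and 5.17) and on 2 h replicate 2 (3.60). Its highest value was 115, on untreated replicate 2. Fbxo30 ran from 13.4 to 96.9 and Insr from 8.08 to 97.4. The constant added before the log2 step compresses differences of such dim genes. Their likeness describes this scale, and no other constant was tested for it.

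The summed intensities of B cell, T cell and macrophage markers differed between the same arrays. The summed intensity of the 5 measured of 8 listed B cell markers (Cd79b, Fcer2a, Cd22, Ms4a1 and Pax5) was 13225, 7883 and 13822 in untreated cells, 11522, 4080 and 10803 at 1 h, and 7852, 12636 and 6913 at 2 h. It was low on the arrays where Birc2 and Tnip1 were low, and its part in their values was not tested. Cd79b, which encodes a chain of the B cell receptor complex, contributed most to the sum on each array. Fcer2a, the gene for CD23, differed from the sum in untreated cells, at 2579, 3117 and 2543, with replicate 2 highest. Cr2 was not above noise. In such bulk RNA, fewer cells of a type and less RNA per cell cannot be told apart. The 4 measured of 8 T cell markers summed to 343, 188 and 362 in untreated cells, 396, 140 and 296 at 1 h, and 213, 298 and 199 at 2 h, and Cd4 and Cd8a were below noise. The 4 measured of 7 macrophage markers summed to 221, 91.6 and 291 in untreated cells, 152, 41.2 and 225 at 1 h, and 200, 313 and 185 at 2 h. In both sums replicate 2 was lowest in untreated cells and at 1 h and highest at 2 h, as in the B cell sum. Cd28 contributed most to the T cell sum on each array, and Adgre1 most to the macrophage sum except on 1 h replicate 2. Single markers differed. At 2 h replicate 2 was highest for Cd28, Thy1 and Adgre1, lowest for Cd3d, Cd3e and Csf1r, and in the middle for Vcam1 and C1qb. In untreated cells it was not the lowest for Cd3d, Csf1r and Vcam1. The part of both sums in the members' values was not tested. The 7 measured of 7 neutrophil markers, by contrast, were highest on untreated replicate 3 (5311), 1 h replicate 3 (4185) and 2 h replicate 1 (3826), and the 3 measured of 7 erythroid markers were also highest there (5049, 5195 and 5037).

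Genes around the members in the same pathways were counted in 6 lists, and 0 rose and 0 fell in any comparison (adjusted p under 0.05). Of 9 measured receptors and ligands, 2 were higher and 7 lower at 1 h than in untreated cells, and 5 were higher and 4 lower at 2 h (medians -0.13 and 0.11). The BAFF receptor gene Tnfrsf13c gave 1805, 2992 and 1556 in untreated cells, 1457, 2293 and 1974 at 1 h, and 2404, 1975 and 2517 at 2 h. Tnfrsf13b, which encodes TACI, gave 2511, 1363 and 2488 in untreated cells, 2167, 1098 and 2250 at 1 h, and 1295, 2497 and 1187 at 2 h. As with the members, replicate 2 of the untreated and 2 h groups stood at opposite ends for both receptors.

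Of 8 measured adaptors and death signalling genes, 3 were higher and 5 lower at 1 h, and the same counts held at 2 h (medians -0.13 and -0.23). Tank, a TRAF-binding regulator, gave 568, 1402 and 524 in untreated cells, 1150, 922 and 1182 at 1 h, and 1483, 510 and 1552 at 2 h. As on the first Traf1 probe, untreated replicate 2 and 2 h replicates 1 and 3 were the 3 highest arrays, and the 1 h arrays lay between them and the other untreated and 2 h arrays. On the second Traf1 probe the 3 highest were 2 h replicate 3 and 1 h replicates 3 and 1. Casp8, the protease that c-FLIP blocks, differed from untreated by -0.25 ± 0.39 at 1 h and -0.41 ± 0.39 at 2 h (adjusted p = 0.9999 and 0.924).

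Of 11 measured A20 and ubiquitin editing partners, 4 were higher and 7 lower at 1 h and at 2 h, and 1 was higher and 10 lower at 2 h than at 1 h (medians -0.08, -0.09 and -0.07). Between 2 h and 1 h 47.9% of all probes were higher. Receptors and ligands had 3 higher and 6 lower there, and adaptors 2 and 6. The counts were 5 and 5 between the antigen receptor and IKK, 5 and 4 for the NF-kappaB list, and 4 and 3 for the IAP and TNFAIP8 list. Otulin, which encodes a linear-ubiquitin protease, differed from untreated by -0.21 ± 0.24 at 1 h and -0.24 ± 0.24 at 2 h. Tax1bp1, an adaptor of A20, differed by -0.08 ± 0.31 and -0.09 ± 0.31 at these times. Of 10 measured genes between the antigen receptor and IKK, 3 were higher and 7 lower at 1 h and 5 were higher and 5 lower at 2 h (medians -0.18 and -0.15). Bcl10, whose protein binds MALT1, gave 1274, 2527 and 1280 in untreated cells, 2488, 1805 and 2257 at 1 h, and 2076, 1240 and 2218 at 2 h. Prkcb, which encodes protein kinase C beta, differed from untreated by -0.54 ± 0.40 at 1 h and -0.41 ± 0.40 at 2 h.

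Of 9 measured NF-kappaB subunits and inhibitors, 8 were higher and 1 lower than untreated at 1 h and at 2 h (medians 0.26 and 0.14), where 49.2% and 47.9% of all probes were higher. Rela, the gene for the p65 subunit, differed from untreated by 0.25 ± 0.24 at 1 h and 0.01 ± 0.24 at 2 h, and Nfkbiz, an atypical inhibitor, by 0.14 ± 0.27 and 0.04 ± 0.27. Of 7 measured other members of the IAP and TNFAIP8 families and their antagonists, 4 were higher and 3 lower at 1 h and 2 were higher and 5 lower at 2 h (medians 0.03 and -0.07). Birc5, the gene for survivin, differed from untreated by -0.22 ± 0.35 at 1 h and -0.07 ± 0.35 at 2 h. Diablo, an IAP antagonist, differed by 0.18 ± 0.28 and 0.32 ± 0.28. No difference of a gene named from these lists passed the threshold.

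**Figure D5:**
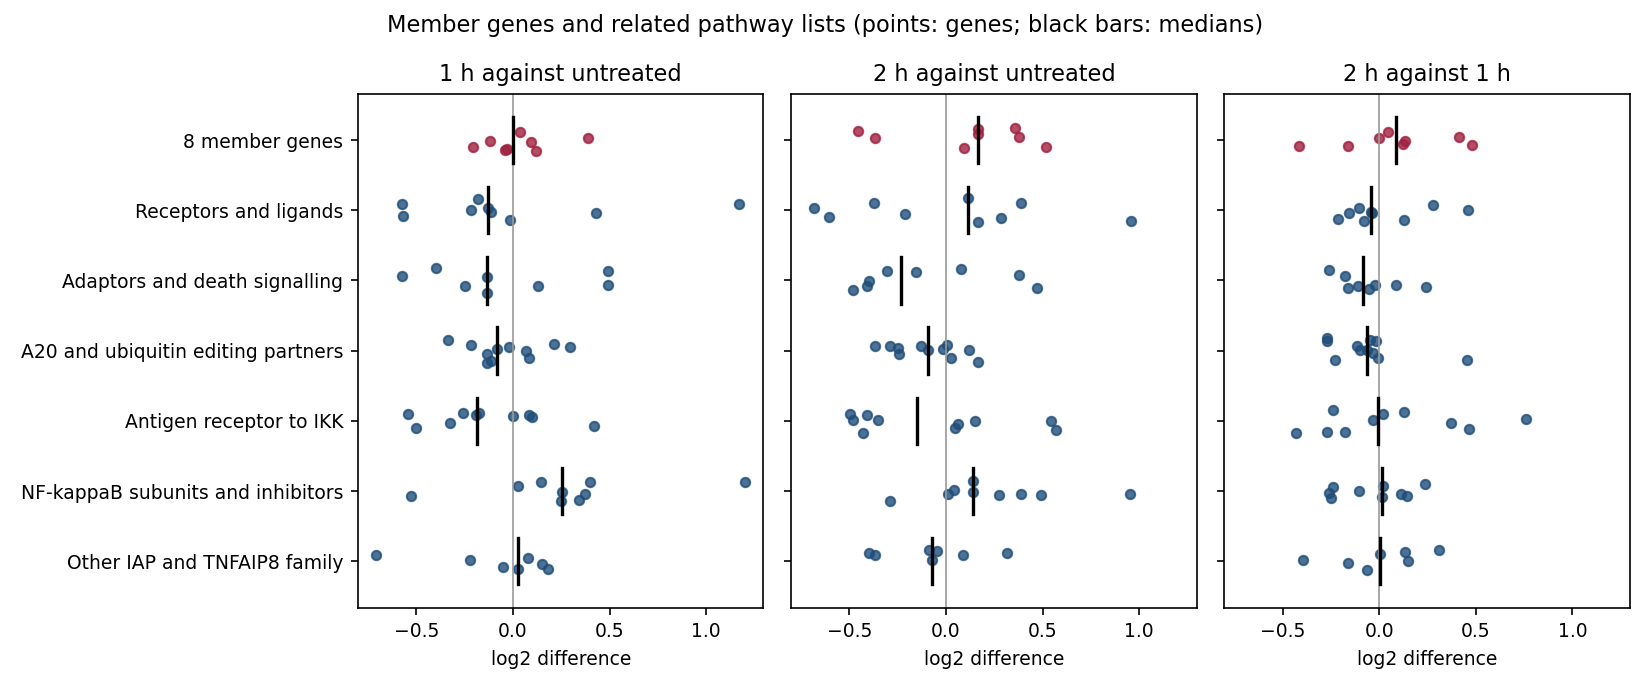
Log2 difference of each measured gene of the 6 pathway lists in each comparison, with points for genes and bars for the list medians. The top row shows the 8 member genes in another colour, with their own median. The NF-kappaB list has the highest median, 0.26 at 1 h against untreated, and 0 genes of any list passed the threshold.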

How the data were processed

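Illumina bead arrays measured RNA of 9 samples. The deposited table of processed values gives 1 linear intensity per probe and array, and no source used here names the software that made it. From the values, the authors' intensities had been background-subtracted (31.8% lie below 0) and scaled between arrays. In a second, non-normalized table the names of 9 value columns match no sample label, and these were not used. Without detection p-values, a probe counted as above noise where it exceeded the 0.05 upper tail of the negative values mirrored around 0 (median 6.44). Precision is limited by the number of arrays.

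Probes above noise on at least 3 arrays (20983 of 45281) were fitted as log2(intensity + 50) with limma 3.58.1 in R 4.3.3 (lmFit, eBayes), with a mean per labelled group, 6 residual degrees of freedom, two-sided tests and Benjamini-Hochberg adjustment over all 20983 at 0.05. Errors of differences are moderated standard errors. The platform annotation gives 1 symbol to 34885 probes, several to 18 and none to 10378, and 34807 of the first matched RefSeq (GRCm38.p6), which also supplied the promoter windows. These windows covered 7 of the 8 genes, and none was available for Tnfaip8.

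The probe with the highest mean stands for its gene. Further member probes with a mean above 100 were tested by name, others are given by counts. From each pathway list the 2 genes with the highest mean are named. Likeness is the root mean square difference between genes' deviations from their means, for members with a log2 range above 1, and the 3 nearest genes are named. Members and lists were chosen with earlier results of these data known. The 3 arrays set apart were known from those results too. The scripts were tested on simulated data. Alternatives covered the offset, filter, normalization, probe choice, replicate block, variance model, array weights and arrays left out.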

Additional observations from a re-analysis of the deposited data

How the results depend on the processing

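With all 9 arrays 0 probes were called in the 3 comparisons (272, 982 and 1371 had an unadjusted p under 0.05), and 0 were called under offsets of 16 and 100, no filter, a filter requiring all 9 arrays, quantile normalization, 1 probe per gene, a trended and robust variance, the 6 arrays compared alone, and without each array in turn. Same-numbered arrays of different groups had deviations correlated at -0.77 to 0.57 (median -0.42, over 0.1 in 3 of 9 pairs). Those 3 were the pairs of untreated and 1 h arrays (0.57, 0.52 and 0.26), and the pairs with a 2 h array were negative. The arrays set apart are among these pairs, so the correlations cannot decide whether the numbers pair the samples. With the replicate number as a block 0 probes were called in each comparison. Quantile normalization changed the scaled values little, as for Tnfaip3 at 1 h, with 0.1183 beside 0.1187 in the main setting.

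Array weights called 6528 probes at 2 h against untreated and 0 in the other comparisons, and 7 of the 8 genes passed at 2 h, all but Birc3. Without untreated and 2 h replicates 2 1 h against untreated had 124 calls, 2 h against untreated 1704 and 2 h against 1 h 0, and without all 3 arrays numbered replicate 2 these counts were 1410, 7050 and 5072. Weights were estimated from, and arrays left out because of, the values tested, so these counts are no test of the treatment.

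Of 564 differences recomputed for the members, 498 kept their sign without a call, 31 kept it and passed the threshold, and 35 changed sign, 0 of the 35 at a called value. Many of the 564 could not change sign. The filters, probe choice, replicate block, variance model and fit of the 6 arrays alone leave the difference itself unchanged. So does leaving out an array that is not in the comparison. The 498 are therefore no measure of stability. With array weights, Cflar at 1 h became 0.019, Tnfaip8 at 1 h 0.12 and Birc3 at 2 h -0.082. With 2 arrays left out, Tnfaip8 at 1 h became 0.042, Birc3 at 2 h -0.060 and the second Traf1 probe between the times 0.070. With 3 left out, Tnfaip8 became 0.14 and Birc3 -0.060. An offset of 100 gave 0.0014 for Birc3 between the times. The cause of these changes was not tested.

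Leaving out 1 array at a time, differences from untreated at 1 h ranged from -0.075 to 0.46 for Tnfaip3, -0.21 to 0.47 for Tnip2, -0.34 to 0.20 for Birc2 and -0.12 to 0.070 for Tnfaip8. At 2 h they ranged from -0.087 to 0.50 for Tnfaip3, -0.056 to 0.61 for Tnip2 and -0.019 to 0.26 for Birc3. Between 2 h and 1 h they ranged from -0.21 to 0.30 for Tnfaip3, -0.087 to 0.50 for Tnip2, -0.15 to 0.60 for Traf1, -0.70 to 0.070 for its second probe and -0.12 to 0.17 for Birc3. Each of the 9 arrays, left out alone, turned the sign of at least 1 of these differences. Birc3 and the further Tnip1, Tnip2 and Birc2 probes lay nearest to noise, where the offset of 50 compresses differences most.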
